A study of Mus musculus with 18 samples.

Results

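The peptidases of the intestinal brush border and the transporter that takes up their products were followed through postnatal development of the mouse ileum, the last stretch of the small intestine. The group was chosen by name as 9 genes: Anpep, Enpep, Dpp4, Mme, Mep1a, Mep1b, Ace, Ggt1 and Slc15a1. Each was read from probe sets, groups of short probes on an Affymetrix array, that the platform annotation ties to its symbol alone, and a gene with several was represented by the one with the highest mean over all arrays. Of the 9 genes, 8 had such a probe set, 14 probe sets in all, among 18193 genes with a probe set of 1 symbol. Expression of Ggt1, the gamma-glutamyltransferase that cleaves extracellular glutathione, was not analysed here.

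RNA came from full-thickness pieces of ileum of C57BL/6 mice, an inbred laboratory strain, with no treatment named, on postnatal days 4, 7, 9, 11, 24 and 32. Each age had 3 individual mice, each on an array of its own, giving 18 arrays. The labels describe a course from before to after weaning without its day. Weaning was placed between days 11 and 24 from general knowledge of laboratory mice, which puts 12 arrays before it and 6 after it. Litter and sex are not in the labels, so p-values measure the spread between these mice whatever its source.

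The brush border is the carpet of microvilli on the absorptive cells, the enterocytes, and its membrane carries enzymes that finish protein digestion at the cell surface. Pancreatic proteases leave short peptides, which surface peptidases trim from one end or cut within, and the resulting di- and tripeptides enter the cell with protons through Slc15a1 (PEPT1) while free amino acids use other carriers. Before weaning the pups live on milk and the ileal enterocytes also take up whole milk proteins into lysosomes, and at weaning the diet turns to solid food rich in other proteins and starch.

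Values are log2 expression levels, so that a difference of 1 is a doubling. Array medians lay between 3.88 and 3.97, and a level near or under them could not be separated from background. Levels of different genes were not compared, because each probe set has its own response. A gene was called where limma's adjusted p was below 0.05 over the 8630 genes that reached log2 6 on at least 3 arrays. The pieces held epithelium. Vil1, the microvillus protein villin, lay at 10.76 ± 0.08 (SD, n = 12) before and 11.73 ± 0.20 (SD, n = 6) after weaning. The adhesion protein Epcam lay at 12.04 ± 0.15 and 11.82 ± 0.18, and E-cadherin, Cdh1, at 10.28 ± 0.12 and 10.65 ± 0.11. They also held other layers, and markers of smooth muscle had a mean level of 10.48 to 10.82 before and 10.52 to 10.94 after weaning. In bulk tissue, fewer cells of a type and less RNA per cell cannot be told apart. Control probe sets also differed between the stages. Spiked hybridization controls split the arrays into a higher group of 10, which held 4 arrays from before and the 6 from after weaning, and a lower group of 8 from before it. Poly-A controls lay at 3.53 to 4.51 before and 4.98 to 6.37 after weaning, and day 11 replicate 1, day 24 replicate 3 and day 32 replicate 3 stood apart in their control probe sets. Probe sets for 18S ribosomal RNA lay at 10.26 to 10.85 on day 24 and at 4.93 to 8.19 on the arrays of the other ages. The 3' minus 5' signal of actin, a measure of RNA integrity, was 1.40 on day 24 replicate 3 and 0.35 to 0.80 on the others. The part of the 18S and actin signals in the results was not tested. Xist, the X-inactivation RNA, lay at 8.68 to 10.13 on 9 of the 12 suckling arrays and on 1 of the 6 later ones, and at 3.86 to 5.12 elsewhere.

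The sequences before the start sites of 4 members were set side by side because 3 of them, Anpep, Slc15a1 and Dpp4, rose together after weaning, and Ace fell. Each is the 250 bases before a start site in RefSeq's annotation of the mouse assembly GRCm38.p6, printed 5′ to 3′ on the gene's strand, which was minus for Anpep (chr7:79848211-79848460), Slc15a1 (chr14:121505255-121505504) and Dpp4 (chr2:62412232-62412481) and plus for Ace (chr11:105967698-105967947). Capitals mark matches, on either strand, to 4 short letter strings associated with factors of enterocytes.
Anpep: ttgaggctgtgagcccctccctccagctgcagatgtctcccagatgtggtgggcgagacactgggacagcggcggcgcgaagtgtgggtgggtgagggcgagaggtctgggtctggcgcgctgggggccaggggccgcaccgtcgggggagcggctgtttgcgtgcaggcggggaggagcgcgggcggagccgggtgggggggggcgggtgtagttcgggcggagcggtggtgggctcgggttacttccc
Slc15a1: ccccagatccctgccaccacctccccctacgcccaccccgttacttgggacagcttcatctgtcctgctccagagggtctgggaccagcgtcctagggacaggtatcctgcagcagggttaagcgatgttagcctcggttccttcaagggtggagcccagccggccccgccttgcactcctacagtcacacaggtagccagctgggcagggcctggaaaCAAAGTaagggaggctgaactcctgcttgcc
Dpp4: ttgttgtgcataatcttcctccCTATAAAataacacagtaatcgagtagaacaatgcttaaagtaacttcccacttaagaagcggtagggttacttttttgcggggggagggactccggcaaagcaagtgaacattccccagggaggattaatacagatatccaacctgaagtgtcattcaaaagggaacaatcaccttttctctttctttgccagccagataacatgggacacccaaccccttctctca
Ace: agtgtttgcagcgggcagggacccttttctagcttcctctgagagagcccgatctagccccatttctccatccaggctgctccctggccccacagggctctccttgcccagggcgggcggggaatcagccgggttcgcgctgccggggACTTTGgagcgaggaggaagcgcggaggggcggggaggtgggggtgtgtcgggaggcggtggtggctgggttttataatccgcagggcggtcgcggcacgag
GTTAAT is a half-site of the HNF1 factors and CAAAGT the core of the site of HNF4, a main regulator of enterocyte genes. TTTATNG is associated with the CDX factors of intestinal identity and GATAAG with zinc finger factors such as Gata4. No string contains another. For 8 of the 9 members, Mep1b being left out, 14 such windows were searched, 4 of them of Ggt1. CAAAGT stood in 6 of the 14 windows, of 5 members (Slc15a1, Mep1a, Ace, Mme and Ggt1), and in 12.6% of all 32851 windows of this length. In Slc15a1 it lay 31 to 26 bases before the start, in Mep1a 29 to 24 bases before it, and in the first of 2 Ace windows, on the opposite strand, 102 to 97 bases before it. TTTATNG stood in 1 window, that of Dpp4, against 9.81% of all windows, and GATAAG in 1, that of Enpep at 70 to 65 bases before the start, against 6.55%. GTTAAT was in 0 of the 14 windows and 6.43% of all. The Anpep window held none of the 4 strings, which says only that these letters are not in it, and CAAAGT occurred in the window of Ace, which fell, as in that of Slc15a1, which rose.

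Between the suckling ages and the ages after weaning, 7 of the 8 measured members rose and Ace fell. Of all genes tested, 31.1% were called higher and 41.8% lower in that comparison. Mme had no array before weaning at the log2 6 filter and Slc15a1 had 2 of 12, so both entered the test through their later arrays and had to differ. Of the other 6, which reached log2 6 on each array of both stages, 5 rose and 1 fell. The rises spanned 1.38-fold in Mep1a to 29.2-fold in Mme, and the arrays of both stages overlapped only in Mep1a. Among all genes, 15.5% had later arrays wholly above and 21.7% wholly below the earlier ones. Those 6 had a median difference of 1.09, beside -0.07 over all genes tested. The F test over the 6 ages called each of the 8 members, as it did 68.3% of all genes. The plot of each gene's level by age shows 3 courses, a step between days 11 and 24 in Anpep, Dpp4, Mme, Mep1b and Slc15a1, a shallow rise in Enpep and Mep1a, and a decline in Ace.

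**Figure D1:**
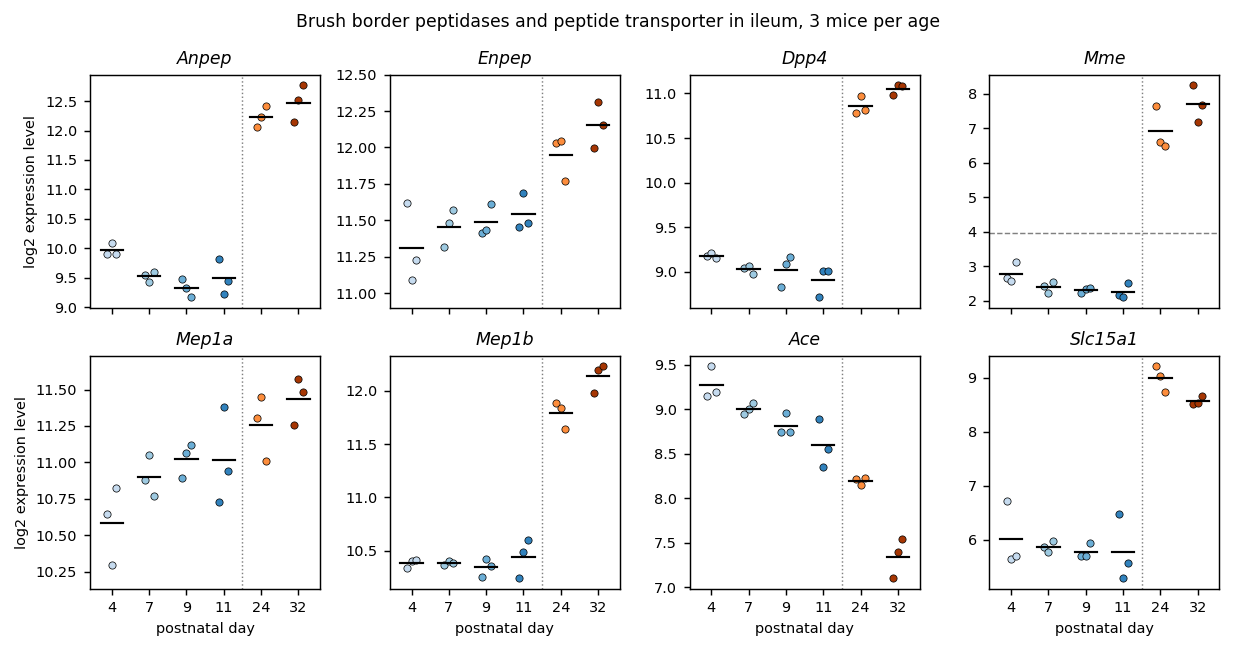
Log2 expression level (vertical axis, scaled per gene) by postnatal day (horizontal axis) for the 8 measured genes. Each point is 1 mouse, horizontal bars are means of 3, the dotted line separates days 4 to 11 from days 24 and 32, and the dashed line in the Mme panel is the highest array median, 3.97. Anpep stepped from 9.49 on day 11 to 12.23 on day 24, and Ace declined from 9.28 on day 4 to 7.34 on day 32.

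The aminopeptidases took different courses. Anpep (aminopeptidase N, on chromosome 7 at 79821803 to 79848210) removes neutral residues from the amino end of peptides and is among the most abundant enzymes of the microvillus membrane. Its level was 9.91, 10.09 and 9.90 on day 4, 9.54, 9.42 and 9.60 on day 7, 9.48, 9.33 and 9.17 on day 9, and 9.82, 9.22 and 9.44 on day 11. On day 24 it was 12.05, 12.24 and 12.41, and on day 32 it was 12.14, 12.51 and 12.77. Each later array lay above each earlier one by more than the whole spread of the suckling arrays. Day 4 was the highest of the suckling ages, and its 3 arrays lay above those of day 7, while days 7, 9 and 11 overlapped, as did days 24 and 32. The difference between the stages was 2.78 ± 0.10 (SE; 6.86-fold, limma's adjusted p = 1.96e-14), and nearly the same size, 2.74 ± 0.16, separated day 24 from day 11. Markers of macrophages and neutrophils, which can also carry Anpep, were 1 higher and 2 lower of the 3 tested of 9 listed, and their mean level lay at 6.74 to 7.26 before and 6.16 to 6.77 after weaning. Over all genes tested, 31.1% were called higher and 41.8% lower. The part of macrophages and neutrophils in the result was not tested.

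Enpep (glutamyl aminopeptidase or aminopeptidase A, on chromosome 3 at 129269177 to 129332749) removes acidic residues and belongs to the same M1 family of zinc aminopeptidases. Its level ran from 11.09 to 11.68 over the 12 suckling arrays, with a median of 11.47, and from 11.77 to 12.31 over the 6 later ones, with a median of 12.04. The arrays of both stages did not overlap, although the gap between them was narrow. Its age means rose at each of the 5 steps, from 11.31 ± 0.27 on day 4 to 12.15 ± 0.16 on day 32 (SD, n = 3 each), as those of 1.6% of all genes did, but neighbouring ages overlapped except days 11 and 24. The stage difference was 0.60 ± 0.08 (SE; 1.52-fold, adjusted p = 3.78e-06), of which 0.41 ± 0.14 fell between days 11 and 24 (adjusted p = 0.0162). That step was no longer called without day 11 replicate 1 (0.37, adjusted p = 0.0542), day 11 replicate 3 (0.38, adjusted p = 0.0501), day 24 replicate 1 (0.37, adjusted p = 0.0520) or day 24 replicate 2 (0.36, adjusted p = 0.0600). Nor was it called with hybridization group as a covariate (0.37, adjusted p = 0.0566). In the higher hybridization group alone, which of day 11 holds only replicate 1, the step was 0.49.

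Set against Enpep on the same array, Anpep changed far more. The within-array difference, Anpep minus Enpep, averaged -1.87 ± 0.42 (SD, n = 12) before and 0.30 ± 0.26 (SD, n = 6) after weaning, and no array of one stage reached the other. The change of 2.18 (95% interval 1.77 to 2.58) passed a two-sided exact permutation test over the 18 arrays (p = 5.39e-05, the smallest it can give, 7.18e-05 adjusted over the 4 pairs compared). The pairs adjusted over include Mme with Ace and Slc15a1 with Anpep, which are described below without their p-values. On day 4 the difference was -1.35 ± 0.36, higher than the means of -1.93, -2.16 and -2.05 on days 7, 9 and 11, and days 24 and 32 lay together at 0.29 and 0.32. Markers of epithelium moved by a size near that of Enpep. Of 10 markers tested, 7 rose and 2 fell, with a median of 0.52, and their mean level went from 10.92 to 11.12 on the suckling arrays to 11.72 to 12.00 on the later ones. Over all genes tested, 31.1% were called higher and 41.8% lower, and the median was -0.07. Of 6 pericyte markers, another cell type known for Enpep, 1 rose and 4 fell, with a median of -0.55. The part of either cell type in the result was not tested.

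Dpp4 (dipeptidyl peptidase 4, on chromosome 2 at 62330073 to 62412315) removes dipeptides that end in proline or alanine, which general aminopeptidases release poorly, and also inactivates incretin hormones. Its level was 9.18, 9.21 and 9.15 on day 4, 8.97 to 9.07 on day 7, 8.82 to 9.17 on day 9 and 8.72, 9.00 and 9.00 on day 11. It was 10.78, 10.98 and 10.81 on day 24 and 10.98, 11.09 and 11.08 on day 32. The suckling arrays filled a band of less than 0.5 and the later arrays lay more than 1.5 above it. The stage difference was 1.92 ± 0.07 (SE; 3.78-fold, adjusted p = 1.26e-14). Days 7, 9 and 11 overlapped, day 4 lay just above day 7, and day 32 lay just above day 24 with a difference of 0.19 ± 0.11 that was not called (adjusted p = 0.257).

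Dpp4 had 3 further probe sets, and the panel of levels per probe set shows that one of them ran the other way. Tested as single probe sets, 1459973_x_at and 1441342_at differed between the stages by 1.77 ± 0.07 and 1.92 ± 0.09, close to the 1.92 of the brightest, 1416697_at. The fourth, 1438279_at, lay at 5.35 to 6.13 on the suckling arrays, at 4.75, 4.65 and 4.53 on day 24, and at 6.27, 6.49 and 5.67 on day 32. It fell by 0.99 ± 0.22 from day 11 to day 24 (SE; limma's adjusted p over all probe sets tested = 0.00121) and rose by 1.50 ± 0.22 from day 24 to day 32 (adjusted p = 0.000392), so its stage difference of -0.25 ± 0.14 was not called. From day 24 to day 32 the x_at probe set, whose suffix marks probes that can also match other transcripts, fell by 0.38 ± 0.12 (adjusted p = 0.0485), while the brightest did not pass. Lymphocytes can carry Dpp4 as well. Of 9 T lymphocyte markers 1 was tested, Zap70, which rose by 0.17, and Cd3e lay at 4.73 to 5.13 before and 4.90 to 5.95 after weaning. Of 8 fibroblast markers, another possible source, 8 fell, with a median of -1.19. Over all genes tested, 41.8% were called lower, and the median was -0.07. The part of T lymphocytes and fibroblasts in the result was not tested.

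**Figure D2:**
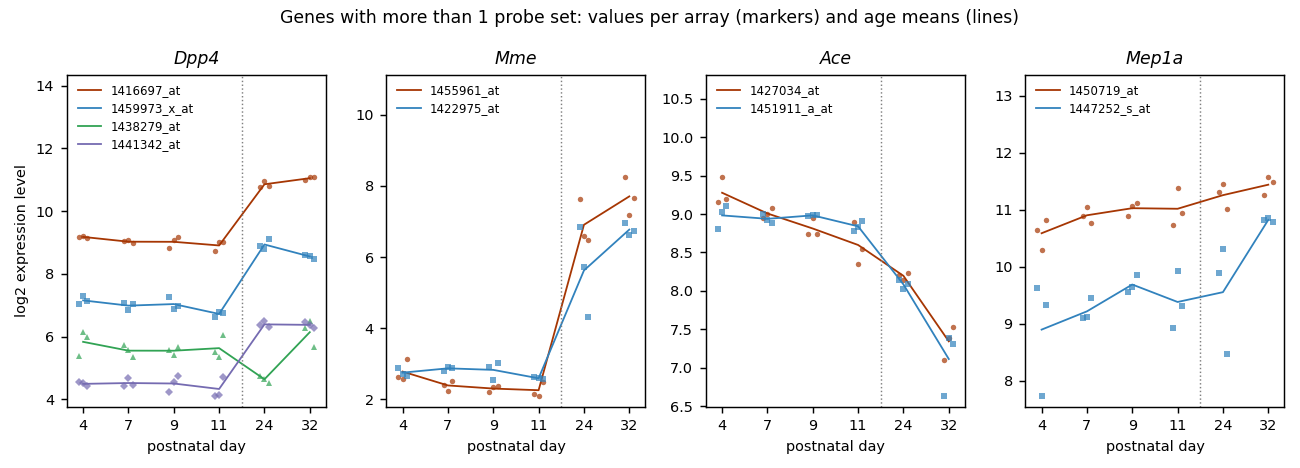
Log2 expression level (vertical axis, scaled per gene) by postnatal day (horizontal axis) for each probe set of the genes that have more than 1. Markers are single mice, lines join the means of 3 mice, and the dotted line separates days 4 to 11 from days 24 and 32. In Dpp4, 1438279_at dips on day 24, where the other 3 probe sets step up.

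The endopeptidases cut within peptides. Mme (neprilysin, on chromosome 3 at 63295211 to 63383713) cleaves before hydrophobic residues and is also known as CD10, a surface marker of some lymphocyte precursors. Over the 12 suckling arrays its level ran from 2.11 to 3.12 with a median of 2.39, under the median of each array. On day 24 it was 7.64, 6.60 and 6.48, and on day 32 it was 8.25, 7.19 and 7.67. The gene was thus at background level in suckling ileum and measurable on each array after weaning, with days 24 and 32 overlapping. The fitted difference was 4.87 ± 0.16 (SE; 29.2-fold). Because the lower side is background, that fold depends on the background correction, and the second probe set, 1422975_at, gave 3.43 ± 0.23 (10.8-fold).

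The later mice differed more in Mme than in any other member, with an SD of 0.64 on day 24 and 0.53 on day 32. On day 24 the second probe set spread further, at 6.84, 5.72 and 4.31, in the same order as the first. The 4.31 was replicate 3, whose 3' minus 5' actin signal was 1.40, against 0.35 to 0.80 on the other arrays. The part of RNA integrity in this spread was not tested. Day 32 exceeded day 24 by 0.80 ± 0.27, which was not called (adjusted p = 0.0578), but was without day 24 replicate 1 (1.16, adjusted p = 0.00456) or day 32 replicate 2 (1.05, adjusted p = 0.0270). B lymphocyte and plasma cell markers also rose after weaning, 4 of the 4 tested of 9 listed, with a mean level of 3.70 to 4.01 before and 6.77 to 10.37 after it. That earlier mean was under the log2 6 filter. A marker under the filter before weaning could be tested only through its later arrays, so its rise was fixed by the filter. Over all genes tested, 31.1% were called higher. The markers of B cell precursors on that list, Vpreb1 and Dntt, reached at most 3.67 and 3.58 on any array, under the array medians. The part of B lymphocytes and plasma cells in the result was not tested.

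Meprin is a secreted or membrane-bound metalloendopeptidase built from the alpha subunit Mep1a (chromosome 17 at 43474324 to 43504143) and the beta subunit Mep1b. In mouse intestine the beta chain anchors the enzyme in the membrane and the alpha chain joins it or is released into the lumen. The subunits did not change alike. Mep1a ran from 10.29 to 11.38 on the suckling arrays, with a median of 10.89, and from 11.01 to 11.57 on the later ones, with a median of 11.38. These ranges overlapped, and in the order of the age means, days 4, 7, 11, 9, 24 and 32, each age overlapped the next. The stage difference was 0.46 ± 0.10 (SE; 1.38-fold, adjusted p = 0.000558), and neither the step from day 11 to day 24 (0.24 ± 0.17, adjusted p = 0.233) nor day 11 against day 4 (0.43 ± 0.17, adjusted p = 0.173) was called. The step from day 11 to day 24 was called without day 11 replicate 2 (0.42, adjusted p = 0.0405) and with hybridization group as a covariate (0.46, adjusted p = 0.0268).

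Mep1b ran from 10.25 to 10.60 over all 12 suckling arrays, the narrowest such range among the members measured. It reached 11.88, 11.83 and 11.64 on day 24 and 11.98, 12.19 and 12.23 on day 32. No array of day 24 overlapped day 11 or day 32, so that the gene stepped up after day 11 and lay higher again on day 32. The stage difference was 1.57 ± 0.07 (SE; 2.97-fold, adjusted p = 2.33e-13). Day 32 exceeded day 24 by 0.35 ± 0.11 (adjusted p = 0.0436), a call close to the threshold that was lost in 19 of 32 alternative settings (adjusted p 0.0502 to 0.211), among them the removal of day 24 replicate 3 (0.27, adjusted p = 0.174) and day 32 replicate 2 (0.32, adjusted p = 0.143) or replicate 3 (0.30, adjusted p = 0.113).

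On the same array, Mep1a minus Mep1b averaged 0.49 ± 0.26 (SD, n = 12) before and -0.61 ± 0.13 (SD, n = 6) after weaning. The arrays of both stages did not overlap in it. The change of -1.11 (95% interval -1.34 to -0.87), a 2.15-fold unequal change, passed the exact two-sided permutation test (p = 5.39e-05, 7.18e-05 adjusted over 4 pairs). By age the difference was 0.20 ± 0.28 on day 4, 0.52 ± 0.13 on day 7, 0.68 ± 0.07 on day 9 and 0.57 ± 0.28 on day 11, and it was lower after weaning, with -0.53 ± 0.13 at day 24 and -0.70 ± 0.07 at day 32. The sign of such a difference has no meaning, since both probe sets respond differently. The second Mep1a probe set, 1447252_s_at, differed by 0.89 ± 0.27 between the stages, with overlapping arrays. It spread from 7.74 on day 4 replicate 2 to 9.92 before weaning and from 8.47 on day 24 replicate 3 to 10.85 after it, wider than the brighter one.

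Ace (angiotensin-converting enzyme, on chromosome 11 at 105967948 to 105989964) removes dipeptides from the carboxyl end of peptides, in the brush border and also on endothelium, where it makes angiotensin II. It was the one member that fell. Its level was 9.15, 9.48 and 9.20 on day 4, 8.95, 9.00 and 9.07 on day 7, 8.74, 8.95 and 8.74 on day 9, and 8.89, 8.35 and 8.55 on day 11. After weaning it was 8.21, 8.14 and 8.23 on day 24 and 7.10, 7.39 and 7.54 on day 32. The means declined at each of the 5 steps, as in 2.71% of all genes. Days 7, 9 and 11 overlapped with their neighbours among the 3, whereas day 4, day 24 and day 32 stood clear of the ages next to them.

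The stage difference of Ace was -1.15 ± 0.09 (SE; 2.22-fold lower, adjusted p = 8.12e-10). It fell by 0.68 ± 0.14 from day 4 to day 11 (adjusted p = 0.0125), by 0.40 ± 0.14 from day 11 to day 24 (adjusted p = 0.0195) and by 0.85 ± 0.14 from day 24 to day 32 (adjusted p = 0.000681). The decline within suckling was not called without day 4 replicate 2 (-0.58, adjusted p = 0.0853) or day 11 replicate 2 (-0.56, adjusted p = 0.0678). The second probe set, 1451911_a_at, stayed between 8.78 and 9.11 over all suckling ages, and differed by only -0.14 ± 0.15 from day 4 to day 11 (adjusted p = 0.687). Both probe sets fell after day 11, the second by 0.76 ± 0.15 to day 24 and by a further 0.97 ± 0.15 to day 32. The step from day 11 to day 24 on the brighter probe set was not called without day 11 replicate 1 (-0.25, adjusted p = 0.127) or day 24 replicate 2 (-0.37, adjusted p = 0.0564).

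The endothelial markers that were tested fell with Ace between the stages. All 5 tested of 9 listed were lower after weaning, with a median of -1.12, and their mean level went from 6.56 to 6.82 on the suckling arrays to 5.45 to 5.70 on the later ones. Over all genes tested, 41.8% were called lower, and the median was -0.07. Of the 4 not tested, Cdh5 and Tek lay at 5.15 to 5.66 and 5.14 to 5.91 before and at 3.57 to 3.89 and 4.01 to 4.25 after weaning. Tie1 lay at 4.83 to 5.80 before and 3.84 to 4.64 after it. Flt1 overlapped between the stages, at 4.63 to 5.48 and 4.47 to 5.20. The marker median was 0.04 from day 4 to day 11 and -0.17 from day 24 to day 32. In these intervals the brighter Ace probe set fell by 0.68 and 0.85, and the second differed by -0.14 and -0.97. The part of endothelium in the result was not tested.

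Mme and Ace are both zinc metallopeptidases. Mme minus Ace on the same array was -6.49 ± 0.27 (SD, n = 12) before and -0.47 ± 1.08 (SD, n = 6) after weaning, a change of 6.02. It stayed between -6.61 and -6.34 in the means of days 4 to 11 and was -1.29 ± 0.63 on day 24 and 0.36 ± 0.70 on day 32. The size rests on the background level of Mme before weaning, and since Mme entered the test through its later arrays, the change is given as a description with no test.

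Slc15a1 (PEPT1, on chromosome 14 at 121459621 to 121505254) carries the di- and tripeptides that the peptidases release, together with protons. On the suckling arrays it was 6.72, 5.64 and 5.69 on day 4, 5.86, 5.77 and 5.98 on day 7, 5.70, 5.70 and 5.93 on day 9, and 6.48, 5.30 and 5.58 on day 11. After weaning it was 9.21, 9.03 and 8.74 on day 24 and 8.51, 8.52 and 8.67 on day 32. Replicate 1 of day 4 and of day 11 stood above the other arrays of their age in a gene otherwise flat through suckling.

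The stage difference of Slc15a1 was 2.92 ± 0.16 (SE; 7.55-fold), and day 24 exceeded day 11 by 3.21 ± 0.26 (9.26-fold). Since the gene entered the test through its later arrays, both sizes are given as a description with no test. The 4 suckling ages overlapped with each other. The transporter was lower on day 32 than on day 24 on each array, by 0.43 ± 0.26, but the fit did not call it (adjusted p = 0.307). Its change against that of Anpep, which releases its substrates, is given as a description for the same reason. Slc15a1 minus Anpep was -3.71 ± 0.37 (SD, n = 12) before and -3.57 ± 0.48 (SD, n = 6) after weaning, a change of 0.14. Whether the rises of both genes differed in size was not tested. By age the difference was highest on day 24, at -3.24 ± 0.41, and -3.91 ± 0.25 on day 32.

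**Figure D3:**
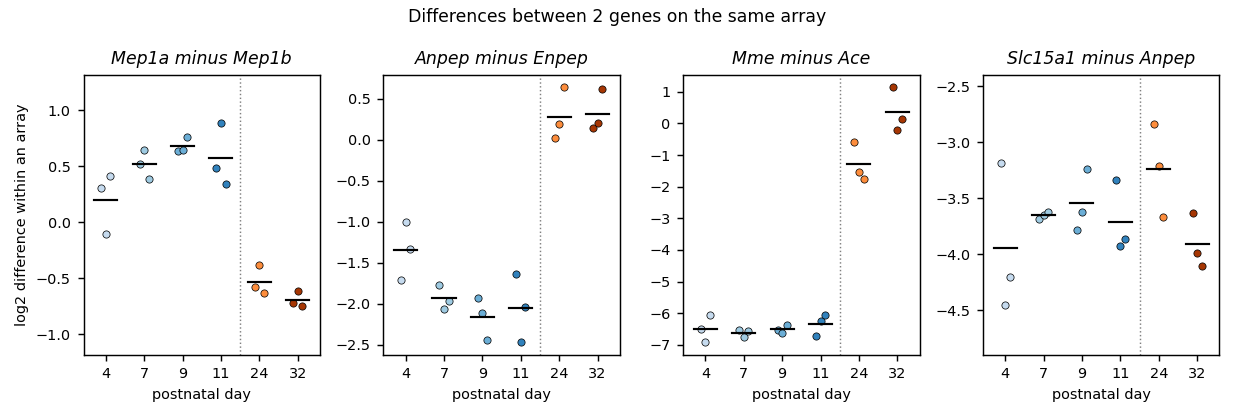
Log2 difference between both genes of a pair on the same array (vertical axis, scaled per pair) by postnatal day (horizontal axis). Points are single mice, bars are means of 3, and the dotted line separates days 4 to 11 from days 24 and 32. The height of a panel has no meaning across genes, but its change with age does: Mep1a minus Mep1b changed by -1.11 and Slc15a1 minus Anpep by 0.14.

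By interval, the members moved mostly between days 11 and 24. From day 4 to day 11 only Ace was called, lower, as were 1.54% of all genes, and Anpep differed by -0.47 ± 0.16 (adjusted p = 0.123) with its arrays apart. None of the steps between adjacent suckling ages was called by limma for any member, against 0.0811% of genes from day 4 to day 7, 0.0463% from day 7 to day 9 and 0.0463% from day 9 to day 11. At an unadjusted p under 0.05 these steps had 1, 0 and 0 members, the 1 being Anpep, and 512, 208 and 608 of all genes. From day 11 to day 24, 6 members rose and Ace fell, against 26.9% and 32.3% of all genes. Of these 6, Mme and Slc15a1 entered the test through their later arrays. From day 24 to day 32 Mep1b rose and Ace fell, against 6.11% and 6.22%. The comparisons share arrays at days 4, 11 and 24, so a low or high array there enters both neighbours. A difference that was not called may still exist, since each age has 3 mice.

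**Figure D4:**
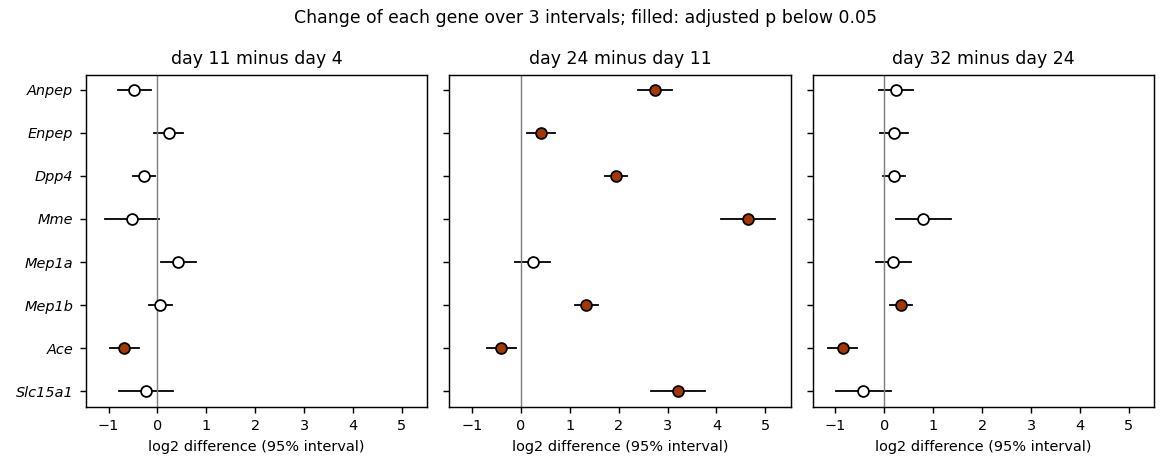
Log2 difference with its 95% interval from limma (horizontal axis) for each gene (vertical axis) from day 4 to day 11, from day 11 to day 24 and from day 24 to day 32. Filled points have an adjusted p below 0.05. From day 11 to day 24 the intervals of Mme, Slc15a1, Anpep, Dpp4 and Mep1b lie above 1, and Ace is filled in each of the 3 panels.

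The stage differences were also computed on other choices of arrays. On the 10 arrays of the higher hybridization group alone they were 2.55 for Anpep, 0.59 for Enpep, 1.99 for Dpp4, 4.87 for Mme, 0.69 for Mep1a, 1.63 for Mep1b, -1.32 for Ace and 2.57 for Slc15a1, and each was called. That group holds no array of day 9, so its earlier side differs from that of the full comparison. Its hybridization controls reached at most 9.62 before and lay at 9.65 to 9.99 after weaning, and its poly-A controls stayed apart too. Array processing and age therefore cannot be told apart in it. Without the 3 arrays that stood apart in their controls they ranged from -1.17 in Ace to 4.97 in Mme and each was called. Each member kept its direction and its call between the stages with each single array left out. For Mme and Slc15a1, which entered the test through their later arrays, these calls were fixed by the filter. In the full comparison 72.9% of all genes were called in either direction.

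Among other surface and secreted peptidases of epithelium, 13 of 21 listed genes were tested, of which 6 rose and 6 fell, with a median of 0.12. Over all genes tested, 31.1% were called higher and 41.8% lower between the stages, and the median was -0.07. Dpep1, a dipeptidase anchored in the membrane, rose by 6.42 ± 0.12, Xpnpep2, which removes a residue before proline, by 3.57 ± 0.09, and the serine protease Tmprss2 by 2.34 ± 0.07 (SE). Before weaning Dpep1 averaged 4.23, near the array medians, and Xpnpep2 4.95. Both were under the log2 6 filter, so they entered the test through their later arrays. The relatives of Ggt1, Ggt6 and Ggt5, named here after their values were seen, differed by 0.95 ± 0.08 and -0.32 ± 0.09. Inside the cell, 20 of 21 listed cytosolic and lysosomal peptidases were tested, and 10 rose and 5 fell, with a median of 0.19. The widest differences were in the lysosomal enzymes Dpp7, which fell by 3.96 ± 0.12, and Tpp1, which fell by 2.46 ± 0.06, while the cytosolic leucine aminopeptidase Lap3 rose by 1.43 ± 0.09. Dpp7, also a dipeptidyl peptidase, thus fell where Dpp4 rose.

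Of 20 listed carriers of peptides and amino acids and their partners, 18 were tested, and 12 rose and 4 fell, with a median of 0.33. The shares over all genes were 31.1% higher and 41.8% lower, with a median of -0.07. The sodium-proton exchanger Slc9a2 rose by 3.99 ± 0.07 and the glutamate and aspartate carrier Slc1a1 by 3.12 ± 0.10. Slc1a1 averaged 5.64 before weaning, under the log2 6 filter. Slc15a2 (PEPT2), the second peptide transporter of the family, fell by 2.79 ± 0.21, opposite to Slc15a1. The neutral amino acid carrier Slc6a19, named after its values were seen, differed by -0.06 ± 0.09 and was not called. Slc15a3 and Slc15a4 did not reach the filter.

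The list of other brush border hydrolases, which act on sugars, lipids and phosphates, also included the adhesion proteins Cdhr2 and Cdhr5. It held 10 tested of 14 listed genes, with 3 that rose, 6 that fell and a median of -0.37. The shares over all genes were 31.1% higher and 41.8% lower, with a median of -0.07. Treh (trehalase) went from 2.89 ± 0.18 (SD, n = 12) to 8.28 ± 0.38 (SD, n = 6). The phospholipase Plb1 averaged 3.69 before weaning, under the array medians. It rose by 6.18 ± 0.38 (SE) from day 11 to day 24 and fell by 4.97 ± 0.38 from day 24 to day 32 (limma's adjusted p = 1.02e-07), so that the arrays of both stages overlapped. Lct (lactase) fell by 1.63 ± 0.35 from day 11 to day 24 and by 6.19 ± 0.35 from day 24 to day 32, and its later arrays ran from 3.13 to 10.77. Alpi, an intestinal alkaline phosphatase, went from 12.00 ± 0.09 to 10.81 ± 0.31. Of the glutathione and gamma-glutamyl cycle, which Ggt1 would feed, 13 of 15 listed genes were tested, and 6 rose and 5 fell, with a median of -0.11. Gpx2, a glutathione peroxidase of epithelium, rose by 3.43 ± 0.25, the glutathione transferase Gsta4 by 1.93 ± 0.14 and glutathione reductase, Gsr, by 1.47 ± 0.16.

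Of 16 listed transcription factors of enterocytes, 13 were tested, and 7 rose and 4 fell, with a median of 0.20. The shares over all genes were 31.1% higher and 41.8% lower, with a median of -0.07. Prdm1 (BLIMP1), a repressor known from suckling epithelium, fell by 3.26 ± 0.07, while Klf5 rose by 1.56 ± 0.13 and Klf4 by 1.23 ± 0.09. Hnf4a and Hnf4g, named after their values were seen because their core site was searched for above, rose by 0.44 ± 0.07 and 0.86 ± 0.14. The plot of each list's genes shows that each list held genes moving both ways. With quantile normalization the list of other surface peptidases had 7 higher and 5 lower, and on the higher hybridization group alone the transport list had 13 higher and 3 lower.

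**Figure D5:**
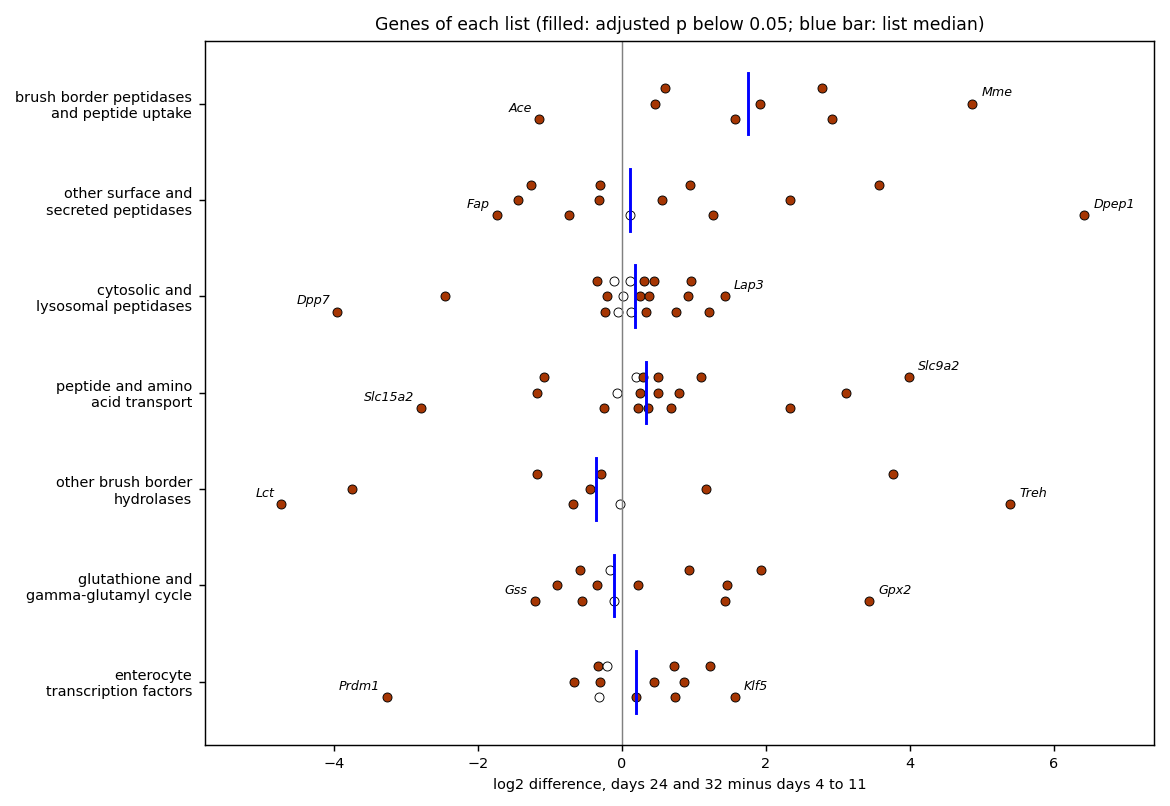
Log2 difference between days 24 and 32 and days 4 to 11 (horizontal axis) of each tested gene, by list (vertical axis). Filled points have an adjusted p below 0.05 over all genes tested, blue bars are list medians, and the lowest and the highest gene of each list carry their names. The medians of the 6 related lists run from -0.37 in the other brush border hydrolases to 0.33 in peptide and amino acid transport. The list of hydrolases includes the adhesion proteins Cdhr2 and Cdhr5.

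The genes whose log2 values over the 18 arrays followed each member most closely were ranked by Pearson's r among all genes tested. The arrays share the step between days 11 and 24, which many genes show, and the 95th percentile of r with Anpep over all genes was 0.929. For Anpep they were Hsd11b2 (0.986) and Gm3336 (0.985), for Slc15a1 Slc16a5 (0.979) and Treh (0.978), for Dpp4 Me2 (0.996) and Slc35g1 (0.995), and for Mme Pcca (0.990) and Ces2a (0.989). Mep1b was followed by Pmp22 (0.994) and Aldh1a1 (0.992), Enpep by Abi1 (0.976) and Taf4 (0.964), Mep1a by Ldah (0.942) and Plekhb2 (0.938), and Ace by Zfpm1 (0.982) and Lhpp (0.974). Slc15a1, Mme and Treh entered the test through their later arrays, so a step between the stages was fixed by the filter. Before weaning, Mme and Treh lay under the array medians. The r values of these genes over the 18 arrays are given as a description with no test. Once each age's mean was taken off, only the differences between mice of one age remained. Over all pairs of members r then ran from -0.50 for Anpep and Mep1a to 0.80 for Anpep and Ace. It was 0.67 for Dpp4 and Mep1b, 0.61 for Enpep and Mep1a, and 0.57 for Mep1a with Mep1b and with Dpp4. Anpep and Mme had -0.48, as did Ace and Mep1a, while Ace and Mep1b had -0.01 and Mme and Mep1a -0.02. The pairs were named after their values were seen, and Mme was at background before weaning. Anpep and Ace, which moved in opposite directions with age (r = -0.79 over the 18 arrays), thus deviated the same way within ages, in values read from the same arrays.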

How the data were processed

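The authors deposited log2 values for each probe set. RMA, named without a version in the submitters' processing notes, corrects background, equalizes the arrays' distributions and summarises probes. The table held 45101 probe sets for 18 arrays. The platform annotation gave 34945 probe sets a single symbol, and 8630 genes were tested. Age was fitted as a factor with 6 levels on the 18 arrays in limma 3.58.1 under R 4.3.3 (lmFit and eBayes, 12 residual degrees of freedom), with Benjamini-Hochberg adjustment over all genes tested. The stage difference is the mean of the day 24 and 32 means minus the mean of the day 4, 7, 9 and 11 means. Errors of differences are standard errors and errors of levels standard deviations. Pairs of genes were compared by exact permutation over the arrays, and the intervals given invert that test. For the pairs with Mme or Slc15a1 only the change is given. Rounding aside, no value was altered or imputed. Replicates of an age correlated at 0.983 or more.

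Named genes were the members, up to 3 called genes of each related list with the widest stage difference, the 2 genes most like each member, and the references Vil1, Epcam, Cdh1, Alpi, Lct and Treh. Further marker lists covered T and B lymphocytes, macrophages, fibroblasts, pericytes, endothelium, epithelium and 5 other tissues. Smooth muscle had a median difference of 0.03 (7 of 7 listed markers tested) and enteric neurons and glia -1.32 (4 of 8). Hepatocytes had -4.65 (2 of 7), pancreatic acinar cells 0.75 (2 of 9) and adipocytes 4.22 (4 of 6). Each median covers only the markers tested, and the median over all genes tested was -0.07. Members and lists were chosen with earlier results of these data known. The limma step was tested on simulated data.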

Additional observations from a re-analysis of the deposited data

How the results depend on the processing

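Alternatives changed the filter (none, or log2 8), averaged probe sets per gene, normalized further (cyclic loess, median or quantile), set trend, robust or array-weight options, fitted only the ages compared, or dropped each array. Chosen after seeing the data were a covariate for hybridization group or Xist, the higher group alone, 3 arrays dropped, and single probe sets. Of 1012 alternative values for 32 differences, 965 kept direction and threshold side, 35 lost the call, 7 gained it and 5 changed sign. The sign changes were in day 11 minus day 4. Slc15a1 was 0.30 in the higher hybridization group, 0.12 without day 4 replicate 1 and 0.0097 without day 11 replicate 2, and Mep1b was -0.12 in that group and -0.016 without day 11 replicate 3. With an array left out they ranged from -0.58 to 0.12 and from -0.016 to 0.16. The unequal change of Slc15a1 and Anpep was -0.0077 without day 24 replicate 1 (-0.0077 to 0.25 with an array left out). Members called from day 4 to day 11 numbered 1, with 0 under the mean of probe sets, only the ages compared or the higher hybridization group, 2 (with Anpep) under array weights or without the 3 arrays, and 0 to 1 with an array left out. From day 24 to day 32 they numbered 2, with 1 under no filter, median normalization, only the ages compared, the higher hybridization group, Xist or without the 3 arrays, and 1 to 3 with an array left out. From day 9 to day 11 array weights gave 1 (Ace). The stage count was 8, or 7 at log2 8, which Mme does not pass on 3 arrays, and from day 11 to day 24 it was 5 to 8 with an array left out. Genes called numbered 6292 between the stages (2865 at log2 8, 10247 without a filter), 249 from day 4 to day 11 (17 to 944), 5109 from day 11 to day 24 (2399 to 7161) and 1064 from day 24 to day 32 (350 to 1213). Of the called genes 49.5% were higher from day 24 to day 32, 37.5% after quantile normalization, and 46.6% from day 4 to day 11, 58.8% after cyclic loess. No paired analysis was possible because only 1 number in the sample titles recurs between ages (on a day 7 and a day 9 array), fewer than the 2 that a block needs. The causes of these shifts were not tested.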

Other observations

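The array gives no detection calls, so Mme before weaning has a background level and no measured expression. With Xist added to the model, the stage calls of the 8 measured members kept their direction and threshold side, and Ace lost its call from day 11 to day 24 (-0.36, adjusted p = 0.0545). The stage calls of Mme and Slc15a1 were fixed by the filter. Probe sets of Dpp4 that disagree could not be assigned to transcripts here.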
